A study of Mus musculus with 8 samples.

Results

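The data described here are the expression values of 10 receptor genes of the CD28 family and of the inhibitory checkpoint group, chosen by name from the 23846 entries of the deposited expression table. The genes were Icos, Cd28, Ctla4, Pdcd1, Btla, Tigit, Cd96, Cd226, Lag3 and Havcr2, and each symbol had 1 entry. RNA sequencing was run on cells sorted from mouse bone marrow, with 4 libraries from TOX knockout mice and 4 from wild-type mice. TOX is a nuclear HMG-box protein of developing lymphocytes, and the series title places the comparison in the development of innate lymphoid cells (ILCs), which are lymphocytes without rearranged antigen receptors. The sources used here do not give the strain, the age, the knockout allele, whether TOX was lost in all cells or which population was sorted, nor do they state that each library came from a separate mouse. Hence the p-values rest on the spread among these libraries, which may be technical. Libraries are called by the number in their column name, 10, 11, 16 or 29, and the same numbers occur in both groups. The column names also hold a code whose meaning is not known here. It reads C4 in every wild-type library, E3 in knockout libraries 10, 16 and 29, and E2 in knockout library 11. What the code stands for and the genotype cannot be told apart.

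CD28 family receptors carry an immunoglobulin-type domain outside the cell and signalling tyrosines inside it. CD28 and ICOS costimulate lymphocytes, CTLA-4 competes with CD28 for the ligands CD80 and CD86, and PD-1 (Pdcd1) and BTLA recruit tyrosine phosphatases that dampen signalling. TIGIT, CD96 and CD226 bind nectin and nectin-like proteins, with CD226 activating and TIGIT inhibitory, while LAG-3 binds MHC class II and TIM-3 (Havcr2) is an inhibitory receptor of T cells, NK cells and myeloid cells. These receptors are best known from mature T and NK cells, but in mouse bone marrow PD-1 also marks progenitors committed to the ILC lineage, and ICOS is found on ILC2 and their precursors.

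In TOX knockout cells the transcripts of Icos, Pdcd1 and Cd28 fell, and no receptor of the 10 rose past the test. Icos fell 38.2-fold and Pdcd1 54.7-fold on the log2(FPKM + 1) scale, whereas Cd28, which lies near Icos, fell 3.94-fold. Ctla4, which lies between these genes, Btla, Cd96 and Cd226 did not pass, and Tigit, Lag3 and Havcr2 were too low to be tested with the other genes. FPKM divides the fragments of a gene by its length and by the reads mapped in the library, so that levels can be set side by side between genes. In bulk RNA, fewer cells of a type and less RNA per cell cannot be told apart.

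The 10693 genes whose FPKM averaged 1 or more were compared with limma, and those with a Benjamini-Hochberg adjusted p under 0.05 were called. Of the 10 receptors 7 passed this filter, and 3 of these 7 were called lower and 0 higher. Over all tested genes 1.72% were called lower and 0.196% higher, 1.92% in all. At an unadjusted p under 0.05, 4 of the 7 receptors were lower and 0 higher, against 17.5% of all tested genes lower and 3.11% higher, 20.6% in all. The median log2 fold change of the 7 receptors was -1.90, against -0.52 for all tested genes. Fold changes are given as the knockout mean minus the wild-type mean of log2(FPKM + 1), so those of low genes are understated. With median-ratio scaling between libraries the median of all tested genes moved to -0.04, with 119 genes (1.11%) called lower and 93 (0.870%) higher, against 184 and 21 as deposited. Of the receptors, 2 were then called lower, Icos and Pdcd1.

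**Figure D1:**
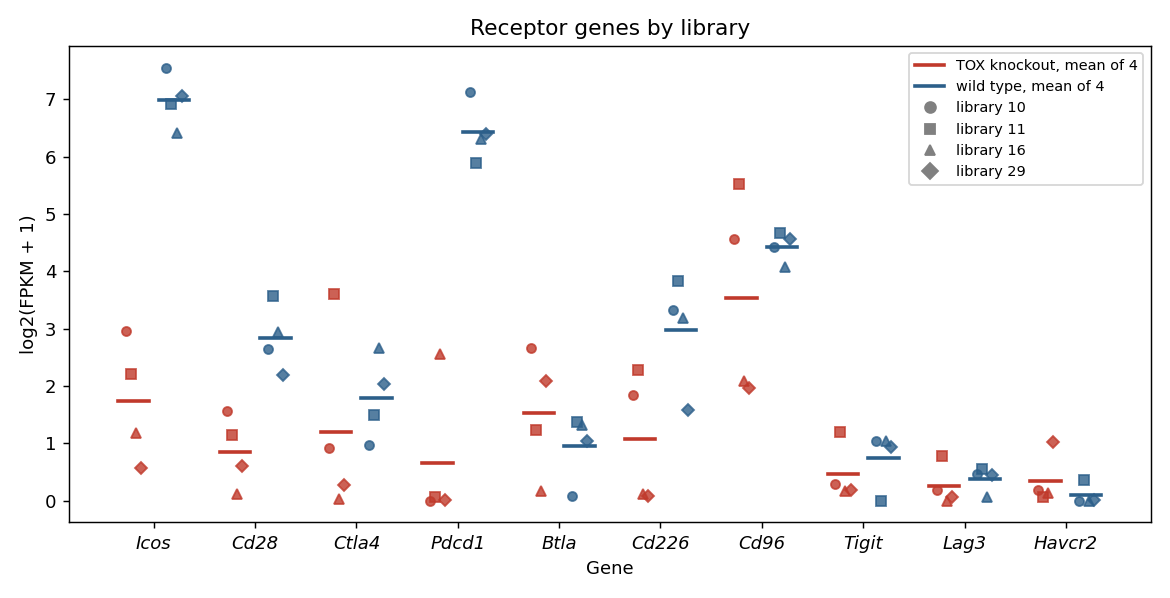
Expression of the 10 receptor genes as log2(FPKM + 1) on the vertical axis, with TOX knockout libraries in red to the left of wild-type libraries in blue, a point per library shaped by its number and a bar at the mean of the 4 libraries. Icos, Pdcd1 and Cd28 are lower in every knockout library than in every wild-type library, as are 11.0% of all tested genes. The knockout points of Cd96 and Ctla4 lie on both sides of the wild-type points.

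The libraries differed in total and in makeup. The summed FPKM was 208351 to 632604 in TOX knockout libraries and 296777 to 365906 in wild-type libraries. The genes at 1 FPKM or more numbered 7328 in knockout library 16, 9263 in knockout library 29, 10115 and 10600 in knockout libraries 10 and 11, and 10425 to 10481 in wild type. The steps between low values placed knockout library 16 at 1.44 times the depth of wild-type library 10, so it was not the shallower of that pair, while absolute depth is unknown. Tox, the targeted gene, was at 2.34, 0.107, 0.928 and 0.242 FPKM in knockout libraries 10, 11, 16 and 29, against 92.4 to 123 in wild type, and each library matched its label. Of 10 listed ILC progenitor markers 7 were called lower and 0 higher (1.72 and 0.196% of all tested genes). At an unadjusted p under 0.05, 7 were lower and 1 higher (17.5 and 3.11% of all tested genes). The higher one was Flt3, averaging 10.7 FPKM over the knockout libraries against 1.53 over the wild-type ones (log2 fold change 2.00, limma adjusted p = 0.0726). The list summed to 171 to 689 FPKM in the knockout libraries and 1994 to 2720 in the wild-type libraries. Id2 alone took up much of these sums, with means of 215 and 1349. Markers of other cells differed in summed level. The 10 neutrophil markers summed to between 11434 and 44819 FPKM in knockout libraries and between 277 and 9428 in wild-type libraries, and 8 erythroid markers to between 10541 and 182147 FPKM in knockout and between 5372 and 26968 in wild type. By limma 0 were called in either list (1.92% of all tested genes), but 10 and 7 were higher at an unadjusted p under 0.05 (3.11% of all tested genes). Their part in the receptor results was not tested.

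The sequences before the start sites are shown for Pdcd1, which fell, and for Ctla4 and Cd96, which did not pass, so that receptors with different results can be read side by side. The 250 bases upstream of the RefSeq start on GRCm38.p6 (the mm10 assembly) are written 5' to 3' on the gene's strand, and capitals mark the ETS core GGAA, the TCF and LEF core CTTTG and the GATA core GATAA on either strand. Such sequences were read for 6 of the 10 receptors. The RefSeq promoter table held no entry for Icos and Cd28, and Cd226 was left out of the search.
Pdcd1 (chr1:94052554-94052803, minus strand): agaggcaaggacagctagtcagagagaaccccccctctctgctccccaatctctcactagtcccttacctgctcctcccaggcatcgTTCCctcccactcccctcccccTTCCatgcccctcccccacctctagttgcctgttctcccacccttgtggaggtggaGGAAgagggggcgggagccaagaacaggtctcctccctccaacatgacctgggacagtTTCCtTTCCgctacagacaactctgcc
Ctla4 (chr1:60908775-60909024, plus strand): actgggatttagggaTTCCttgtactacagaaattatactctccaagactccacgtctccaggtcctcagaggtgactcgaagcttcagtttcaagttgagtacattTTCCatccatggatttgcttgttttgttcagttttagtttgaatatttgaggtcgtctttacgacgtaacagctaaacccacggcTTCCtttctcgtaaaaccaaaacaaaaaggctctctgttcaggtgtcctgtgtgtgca
Cd96 (chr16:46120249-46120498, minus strand): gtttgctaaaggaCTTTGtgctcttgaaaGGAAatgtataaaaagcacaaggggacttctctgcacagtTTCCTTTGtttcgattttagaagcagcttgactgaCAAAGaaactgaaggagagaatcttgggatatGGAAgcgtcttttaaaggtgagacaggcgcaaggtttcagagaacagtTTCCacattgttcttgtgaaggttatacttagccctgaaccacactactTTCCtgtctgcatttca
In these windows GGAA was found 5 times for Pdcd1, 3 times for Ctla4 and 5 times for Cd96, and 93.4% of 32851 promoter windows of this length hold it. CTTTG was found 0 times for Pdcd1 and Ctla4 and 3 times for Cd96, 1 of which shares bases with a GGAA match, and 48.6% of windows hold it. GATAA was in none of the 3 windows, against 22.6% of all windows. Of the other motifs searched on both strands, the RUNX motif TGTGGT was found in the Cd96 window (14.0% of all windows), the E-box CANNTG in the Ctla4 window (66.2%), and TGACGTCA and TGAGTCA in none of the 3 (1.55 and 4.46%). A match is a description of letters and not a binding site.

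In wild-type cells Icos had the highest mean level, 131 ± 42.6 FPKM (SD, n = 4), followed by Pdcd1 at 89.6 ± 34.2, and their ranges overlapped, although Icos was above Pdcd1 in each of the 4 libraries. Cd96 followed at 20.8 ± 3.72, with a range of 15.8 to 24.4 that lay below both and above all other receptors. Cd226 at 8.07 ± 4.61 and Cd28 at 6.57 ± 3.09 did not differ beyond their spread. Ctla4 at 2.81 ± 1.91 overlapped Cd28, and Btla at 1.05 ± 0.696 overlapped Ctla4. Tigit at 0.751 ± 0.505 was followed by Lag3 at 0.313 ± 0.187, and Havcr2 was listed at 0 in 2 of the 4 libraries and at 0.00495 and 0.275 in the others. Of all 23846 entries, 97.76 to 99.27% were below Icos and 96.38 to 98.97% below Pdcd1 in the wild-type libraries. In TOX knockout cells the order was different, with Cd96 first at 18.4 ± 19.9 FPKM, then Ctla4 at 3.06 ± 5.40, Icos at 3.03 ± 2.81, Btla at 2.50 ± 2.26, Cd226 at 1.65 ± 1.90, Pdcd1 at 1.23 ± 2.43 and Cd28 at 0.936 ± 0.810 (SD, n = 4 each). In the knockout libraries every neighbouring pair in this order overlapped.

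Icos and Pdcd1 together made up 16.7, 5.38, 61.7 and 5.72% of the summed FPKM of the 10 genes in knockout libraries 10, 11, 16 and 29, against 77.2 to 89.7% in wild type. The summed level itself was 40.5, 68.1, 9.98 and 8.65 FPKM in these knockout libraries and 201 to 362 in wild type. Icos was the top receptor in every wild-type library. The top receptor was Cd96 in knockout libraries 10 and 11, Pdcd1 in knockout library 16 and Btla in knockout library 29.

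**Figure D2:**
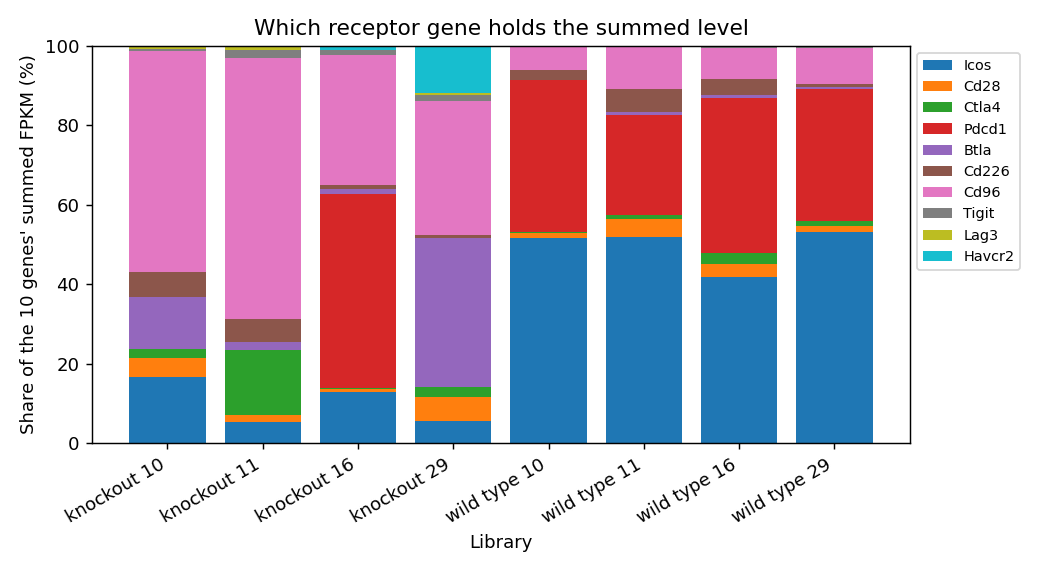
Share of the summed FPKM of the 10 receptor genes held by each gene, in percent, with 4 TOX knockout libraries on the left and 4 wild-type libraries on the right. Icos and Pdcd1 hold 77.2 to 89.7% in wild type, and the knockout libraries differ from each other in which gene leads.

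Among the costimulatory receptors, Icos (chromosome 1, 60977914 to 61000321, mm10, plus strand) showed 6.75, 3.62, 1.28 and 0.483 FPKM in knockout libraries 10, 11, 16 and 29, against 187, 119, 84.1 and 133 in the wild-type libraries of the same numbers. The groups did not overlap, as was so for 11.0% of all tested genes in the lower and 1.09% in the higher direction, and the lowest wild-type value was above every knockout value by a wide margin. Icos had a log2 fold change of -5.26 (SE 0.51, limma adjusted p = 1.61e-04). Within the barcode runs of the column names, 17 to 20 and 40 to 43, it was -4.91 (adjusted p = 0.190) and -5.60 (adjusted p = 0.00211) in limma fits of 2 against 2 libraries. A run here means consecutive barcode numbers, and the labels do not say that it was a sequencing run or a batch.

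Cd28 (chromosome 1, 60746388 to 60773359, plus strand), the receptor for CD80 and CD86, showed 1.94, 1.20, 0.0832 and 0.526 FPKM in the knockout libraries in that order, against 5.26, 10.8, 6.64 and 3.57 in wild type. All 4 knockout values were below all wild-type values, as was so for 11.0% of all tested genes. Its log2 fold change was -1.98 (SE 0.46, 95% interval -2.98 to -0.98, limma adjusted p = 0.0484), just inside the threshold, and Cd28 was called under 10 of 23 other settings. It was not called with median-ratio scaling (adjusted p = 0.0632) nor without knockout library 29 (adjusted p = 0.136), and leaving out wild-type library 10, 11, 16 or 29 in turn gave an adjusted p of 0.139, 0.195, 0.124 and 0.0929. In the first barcode run alone Cd28 had a log2 fold change of -1.96 (limma adjusted p = 0.652), and in the second barcode run it was not called either (adjusted p = 0.341).

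Cd226, the activating receptor of the nectin-binding group (chromosome 18, 89197427 to 89270327), showed 2.57, 3.88, 0.0880 and 0.0606 FPKM in knockout libraries 10, 11, 16 and 29, against 9.03, 13.2, 8.07 and 2.00 in wild type. Knockout libraries 16 and 29 were below all wild-type libraries, and the other knockout libraries overlapped wild-type library 29. The log2 fold change of -1.90 (SE 0.63) did not pass (limma adjusted p = 0.147), with a 95% interval of -3.25 to -0.54.

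Among the inhibitory receptors, Pdcd1 (chromosome 1, 94038305 to 94052553, minus strand) was listed at 0 in knockout library 10 and showed 0.0467, 4.88 and 0.0114 FPKM in knockout libraries 11, 16 and 29, against 138, 58.5, 78.6 and 83.2 in wild-type libraries 10, 11, 16 and 29. Knockout library 16 stood apart from the other knockout libraries, and was still below the lowest wild-type library. Pdcd1 had a log2 fold change of -5.77 (SE 0.57, limma adjusted p = 1.98e-04), and without knockout library 16 it was -6.40 (adjusted p = 1.24e-06). Within the barcode runs it was -5.44 (adjusted p = 0.197) and -6.10 (adjusted p = 7.89e-04) in limma fits. Knockout library 16, highest in Pdcd1, was not highest in Icos, where knockout library 10 was.

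Ctla4 (chromosome 1, 60909025 to 60915830, plus strand), the inhibitory counterpart of CD28, showed 0.883, 11.1, 0.0248 and 0.205 FPKM in knockout libraries 10, 11, 16 and 29, against 0.959, 1.81, 5.35 and 3.10 in wild type. Knockout libraries 10, 16 and 29 were below every wild-type library, while knockout library 11 held the highest value of all 8. The fitted change was -0.59 on the log2 scale (SE 0.71, 95% interval -2.13 to 0.95, limma adjusted p = 0.601). It was -1.39 without knockout library 11 (limma adjusted p = 0.0912) and 0.47 without knockout libraries 16 and 29 (adjusted p = 0.809).

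Btla (chromosome 16, 45224337 to 45252895, plus strand), the receptor for HVEM, showed 5.29, 1.34, 0.127 and 3.25 FPKM in knockout libraries 10, 11, 16 and 29, against 0.0608, 1.58, 1.49 and 1.05 in wild type. Knockout libraries 10 and 29 were above all wild-type libraries and the other knockout libraries were within their range. The log2 fold change of 0.58 (SE 0.55, 95% interval -0.61 to 1.78) did not pass (limma adjusted p = 0.506).

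Cd96 (chromosome 16, 46035657 to 46120248, minus strand), a nectin-binding receptor of T and NK cells, showed 22.5, 44.9, 3.27 and 2.91 FPKM in knockout libraries 10, 11, 16 and 29, against 20.5, 24.4, 15.8 and 22.5 in wild type. The wild-type libraries lay close together, knockout library 11 was above all of them, and knockout libraries 16 and 29 were below all of them. Its fitted change was -0.89 on the log2 scale (SE 0.70, 95% interval -2.40 to 0.61, limma adjusted p = 0.426) and turned to 0.61 without knockout libraries 16 and 29 (adjusted p = 0.383). Of the 10 listed NK and ILC1 markers 9 were tested. At an unadjusted p under 0.05, 3 were lower and 1 higher (17.5 and 3.11% of all tested genes). By adjusted p, 2 were called lower and 0 higher (1.72 and 0.196% of all tested genes). Those called were Eomes, a transcription factor of NK cells, at 1.35 ± 1.91 FPKM in knockout and 21.8 ± 6.90 in wild type (limma adjusted p = 0.00288), and Klrb1b, an NK cell receptor, at 0.962 ± 1.01 in knockout and 8.20 ± 4.33 in wild type (adjusted p = 0.0330). The summed level of the list was 640, 495, 59.3 and 85.4 FPKM in knockout libraries 10, 11, 16 and 29 and 198 to 245 in wild type. The granule proteases Gzma and Gzmb, neither of them called, took up much of the high sums, with Gzma at 317 FPKM in knockout library 10 and 0 to 19.2 in wild type, and Gzmb at 295 in knockout library 11 and 0 to 49.3 in wild type. Their part in the Cd96 values was not tested.

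The other 3 receptors stayed under a mean FPKM of 1 and were compared by permuting the genotype labels of all 8 libraries (exact, two-sided), where the smallest possible p is 0.0286. Tigit (chromosome 16, 43648861 to 43664184) showed 0.223, 1.28, 0.127 and 0.139 FPKM in knockout libraries 10, 11, 16 and 29, against 1.05, 0, 1.05 and 0.907 in wild type, so that library 11 went against the other numbers in each group (exact p = 0.486). Lag3 (chromosome 6, 124904359 to 124911705) ranged from 0 to 0.711 FPKM in the knockout libraries and from 0.0411 to 0.467 in the wild-type ones (exact permutation p = 0.514). Havcr2 (chromosome 11, 46454931 to 46481254) ranged from 0.0409 to 1.02 in knockout and from 0 to 0.275 in wild type (exact permutation p = 0.371). No difference between the groups was detected for these 3 genes.

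**Figure D3:**
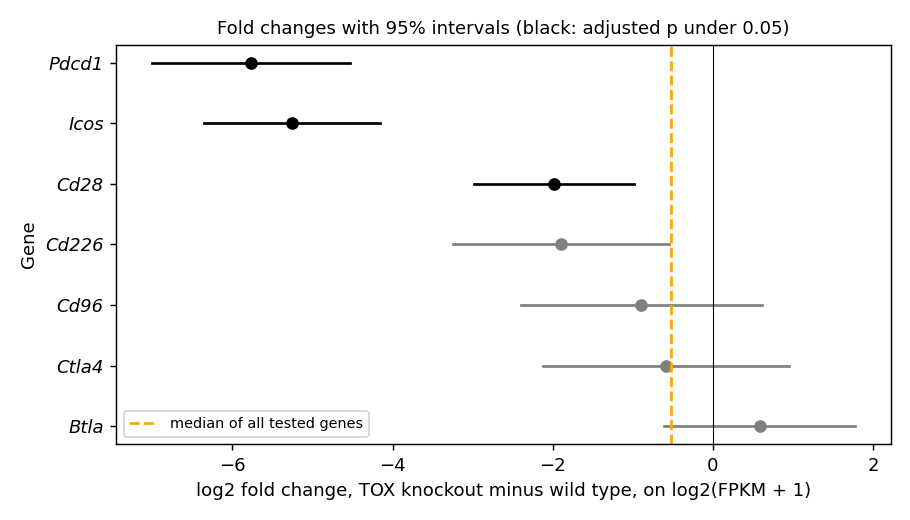
Log2 fold change of the 7 tested receptors, TOX knockout minus wild type on log2(FPKM + 1), with 95% intervals from the limma fit (black where the adjusted p was under 0.05) and a dashed line at the median of all tested genes, -0.52. The intervals of Pdcd1 and Icos lie below that of Cd28, and the intervals of Cd96, Ctla4 and Btla include 0.

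Cd28, Ctla4 and Icos lie in this order on chromosome 1 within 254 kb, with no other entry of the table between them. Their log2 fold changes of -1.98, -0.59 and -5.26 differed in size along the cluster. Their wild-type levels differed too, at 6.57, 2.81 and 131 FPKM, and the added 1 limits how far the lower genes can fall. With a pseudocount of 0.1 the changes were -3.1, -1.6 and -5.9. The nearest tested genes before Cd28 were Raph1, at 2.05 ± 1.02 in knockout and 1.43 ± 0.777 FPKM in wild type, and Abi2, at 5.02 ± 5.09 in knockout and 5.93 ± 1.55 in wild type (limma adjusted p = 0.640 and 0.515). Beyond Icos, both nearest entries averaged under 1 FPKM. The 2 nearest entries on each side of every receptor but Cd226, leaving out the receptors themselves, made 28 neighbours, of which 14 passed the filter. None was called by limma (0 of 14, against 1.92% of all tested genes). At an unadjusted p under 0.05, 4 were lower and 1 higher (17.5 and 3.11% of all tested genes), with log2 fold changes between -2.07 and 1.14. The lowest adjusted p, 0.0612, belonged to Fam71b beside Havcr2, at 1.30 ± 1.62 FPKM in knockout and 7.14 ± 1.74 in wild type. The other tested neighbours were Atg3, Slc35a5 and Cd200 beside Btla, Zbtb20 and Qtrtd1 beside Tigit, Ptms and Mlf2 beside Lag3, Med7 beside Havcr2, Plcxd2 and Pvrl3 beside Cd96, and Fam174a beside Pdcd1, with adjusted p from 0.136 to 0.913.

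**Figure D4:**
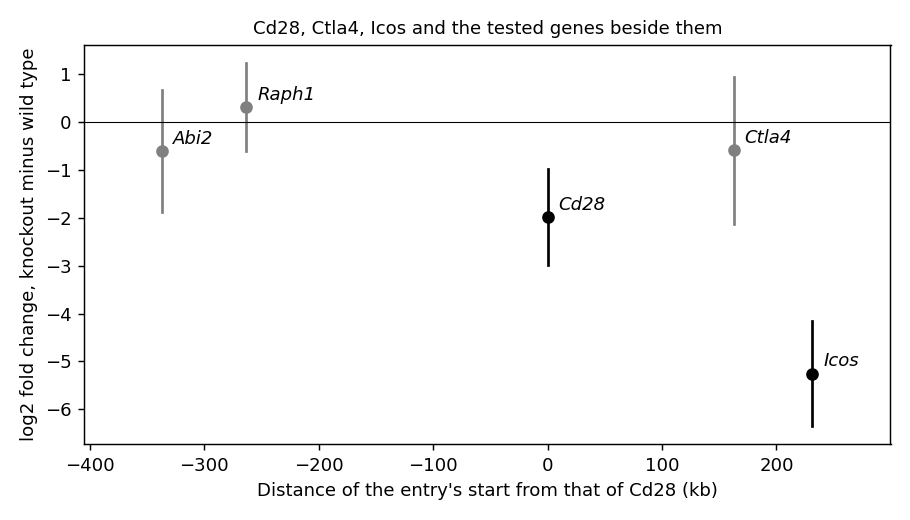
Log2 fold change (TOX knockout minus wild type) with 95% intervals against the distance of each entry's start from that of Cd28, in kb, for the 3 receptor genes of the chromosome 1 cluster and the nearest tested genes before them. Icos and Cd28 are called (black), while Ctla4 between them and both neighbours are not (grey). The added 1 in the logarithm limits how far the lower genes Cd28 and Ctla4 can fall.

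Set against other genes of the ILC lineage in the same library, Icos and Pdcd1 were low in knockout cells relative to several of these. Il7r, Id2, Gata3 and Zbtb16 themselves fell (limma adjusted p = 0.00114 for Il7r, 0.00426 for Id2, 0.00108 for Gata3 and 3.52e-04 for Zbtb16). The difference in log2(FPKM + 1) between Icos and Il7r, the interleukin 7 receptor, was -4.67 to -2.19 in knockout libraries and -1.52 to -0.94 in wild type. Between Icos and Id2, an inhibitor of E proteins needed by ILCs, it was -6.41 to -5.03 in knockout and -4.06 to -3.07 in wild type. For Pdcd1 the difference to Il7r was -5.15 to -3.30 in knockout and -2.22 to -1.39 in wild type, and to Id2 -8.31 to -5.04 in knockout and -4.28 to -3.61 in wild type. None of these ranges overlapped. Against Gata3, a transcription factor of T cell and ILC development, Icos also kept apart at -2.01 to -0.87 in knockout and -0.35 to 0.73 in wild type, but Pdcd1 overlapped at -4.08 to -0.65 in knockout and -1.12 to 0.30 in wild type. Against Zbtb16, which encodes PLZF of ILC precursors, Icos overlapped at -0.08 to 2.58 in knockout and 2.24 to 2.59 in wild type. Against Tcf7, another listed ILC progenitor marker, Pdcd1 overlapped at -6.00 to -0.98 in knockout and -1.87 to -0.90 in wild type. Icos did not overlap there, at -3.86 to -2.04 in knockout and -1.34 to -0.23 in wild type. Rora, also of that list, fell about as far as Icos (log2 fold change -5.43, against -5.26), and the receptors were not set against it. Cd96 went the other way against Gata3, at -1.11 to 1.37 in knockout and -2.86 to -2.34 in wild type. Cd28 also lay higher on this scale, at -3.09 to -1.33 in knockout and -5.22 to -3.45 in wild type. Its knockout values of 0.0832 to 1.94 FPKM are near or under the added 1, which shapes this difference. In knockout library 16 Cd28 was at 0.0832 and Gata3 at 8.20 FPKM. That is a lower plain ratio than in wild-type library 29, at 3.57 and 170, so without the added 1 the groups overlap. Between Icos and Cd96 the difference was -3.31 to -0.91 in knockout libraries and 2.25 to 3.13 in wild-type libraries, so that their order was turned in all 4 knockout libraries. These differences were not tested, and the added 1 in the logarithm limits how far low values can fall.

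**Figure D5:**
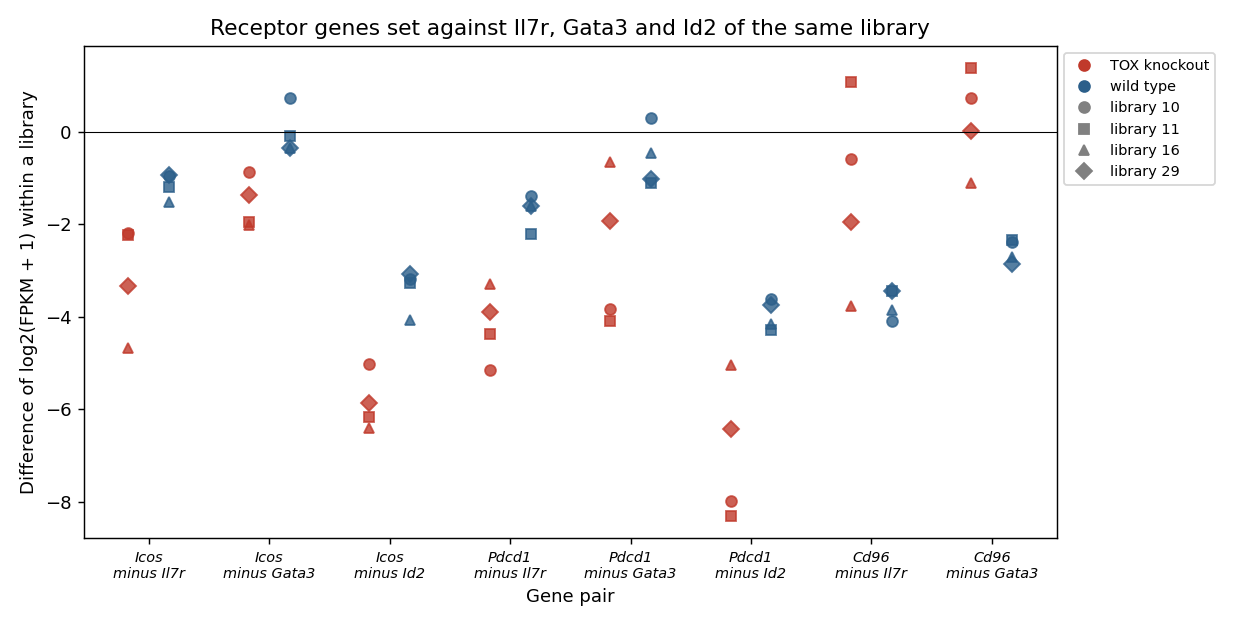
Difference in log2(FPKM + 1) between a receptor gene and Il7r, Gata3 or Id2 of the same library, with 4 TOX knockout libraries in red to the left of 4 wild-type libraries in blue. Icos lies lower against all 3 genes in knockout, Pdcd1 against Il7r and Id2, and Cd96 lies higher against Gata3.

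Likeness of profile was measured as the Euclidean distance between log2(FPKM + 1) values centred on each gene's mean over the 8 libraries. For genes that fell this far, the distance mostly follows the size of the fall. Nearness to Icos or Pdcd1 thus restates a fall of like size and is no separate result. Of the 3 genes nearest to Icos, 1 was an unnamed transcript and the others were Bcas1 (distance 1.72) and Rxrg (2.06), which encodes a retinoid X receptor, against a median distance of 7.0 over all tested genes. Tox itself came next at 2.11. Of the 3 nearest to Pdcd1, 1 was the same unnamed transcript and the others were Arg1 (2.28), encoding arginase 1, and Rxrg (2.29), against a median of 8.23.

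Of 16 listed ligands and counter-receptors of the group, 9 were tested, and 0 were called lower and 1 higher (1.72 and 0.196% of all tested genes). At an unadjusted p under 0.05, 1 was lower and 2 higher (17.5 and 3.11% of all tested genes). The median log2 fold change was -0.12, against -0.52 for all tested genes. Cd86, the CD28 and CTLA-4 ligand of antigen-presenting cells, rose to 1.78, 1.43, 2.91 and 2.65 FPKM in knockout libraries 10, 11, 16 and 29, against 0.0156 in wild-type library 29 and a listed 0 in the other 3, a difference of 1.64 in log2(FPKM + 1) (SE 0.37, limma adjusted p = 0.0412). With a mean of 1.10 FPKM over all libraries, Cd86 passed the filter only through the knockout libraries. Its call is therefore tied to the group that let it be tested. The call was kept under 8 of 20 other settings, and lost with median-ratio scaling (adjusted p = 0.0570). The Cd86 call was kept without 1 of the 6 libraries whose removal left the gene in the test. Leaving out wild-type library 10, 11, 16 or 29 in turn gave an adjusted p of 0.139, 0.153, 0.108 and 0.135, and without knockout library 10 it was 0.0684. Beside it, 7 dendritic cell markers summed to 641, 1474, 87.1 and 597 FPKM in knockout libraries 10, 11, 16 and 29 and 242 to 619 in wild type, and 8 monocyte markers to between 302 and 2385 in knockout libraries and between 159 and 813 in wild-type libraries, and their part was not tested.

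Of 22 listed signalling partners of these receptors, all were tested, and 1 was called lower and 0 higher (1.72 and 0.196% of all tested genes). At an unadjusted p under 0.05, 4 were lower and 0 higher, where 17.5% of all tested genes were lower and 3.11% higher. The median log2 fold change of the list was -0.46. The member that fell was Prkcq, encoding protein kinase C theta, which acts downstream of CD28 in T cells. It was at 4.23, 6.20, 0.619 and 3.20 FPKM in knockout libraries 10, 11, 16 and 29, against 21.6, 21.5, 15.7 and 24.9 in wild type. The groups did not overlap, as was so for 11.0% of all tested genes in the lower direction (log2 fold change -2.44, SE 0.47, limma adjusted p = 0.0199). Prkcq was called under 16 of 24 other settings, and 4 of the 8 fits that left out a library lost it (wild-type libraries 10, 11 and 29 and knockout library 29, adjusted p from 0.0615 to 0.0929).

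Of 20 other immunoglobulin-superfamily receptors of lymphocytes, 14 were tested, and 1 was called lower and 0 higher (1.72 and 0.196% of all tested genes). At an unadjusted p under 0.05, 3 were lower and 1 higher, where 17.5% of all tested genes were lower and 3.11% higher. The median log2 fold change of the list was -0.41. Cd84, a SLAM family receptor, fell to 12.5, 12.8, 7.85 and 9.59 FPKM in knockout libraries 10, 11, 16 and 29, against 44.8, 51.7, 64.4 and 42.4 in wild type (log2 fold change -2.15, SE 0.34, limma adjusted p = 0.00606), and it was called under 22 of 24 other settings, the fits within a run being the exceptions.

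Because these receptors are best known from T cells, T cell markers were set beside them. The 11 listed markers summed to between 11.9 and 107 FPKM in knockout libraries and between 45.6 and 107 in wild-type libraries. Of 8 tested, 1 was lower and 2 higher at an unadjusted p under 0.05 (17.5 and 3.11% of all tested genes). By adjusted p, 1 was called lower and 0 higher (1.72 and 0.196% of all tested genes). That gene was Trat1, a T cell receptor-associated adaptor, which fell to 7.56, 13.5, 0 and 0.550 FPKM in knockout libraries 10, 11, 16 and 29, against 49.4, 82.4, 21.0 and 61.9 in wild type (limma adjusted p = 0.0283). Other members were higher in some knockout libraries. Cd3g was at 37.9, 13.7, 31.9 and 0.431 FPKM in knockout libraries 10, 11, 16 and 29, against 2.38 to 7.30 in wild type, and Cd3d averaged 14.4 ± 12 in knockout and 4.79 ± 1.37 in wild type (limma adjusted p = 0.390 and 0.276). Cd5 was at 0.321 to 4.82 FPKM in the knockout libraries and 0 to 0.238 in the wild-type ones (limma adjusted p = 0.180). The groups did not overlap, as was so for 1.09% of all tested genes in the higher direction. With a mean of 1.20 FPKM over all libraries, Cd5 passed the filter only through the knockout libraries. Its place among the 2 higher markers is therefore tied to the group that let it be tested. Of the defining markers, Cd4 was at most 0.748 FPKM in any knockout library and 0.0219 in any wild-type library, and was listed at 0 in knockout library 16 and wild-type libraries 10 and 16. Cd8a was at most 0.733 FPKM in knockout and 0.542 in wild type, and Cd3e was at 1.08 to 7.29 in knockout and 0.394 to 1.44 in wild type (limma adjusted p = 0.240). Foxp3, the factor of regulatory T cells, was at 0.452 to 2.15 FPKM in the knockout libraries and 0.629 to 1.38 in the wild-type ones. Ncr1, an NK cell and ILC receptor, was at 0, 5.16, 9.27 and 0 FPKM in knockout libraries 10, 11, 16 and 29, against 11.9, 3.85, 1.70 and 9.65 in wild type (limma adjusted p = 0.362).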

How the data were processed

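The deposited table held FPKM for each gene in each library. The submitters' processing notes name Cufflinks and build mm10, with the Cufflinks version, the aligner and the annotation not given in the sources used here. Per the labels' protocols, total RNA was turned into cDNA (SMARTer kit) and sequenced as Ion Torrent libraries. Columns carry the genotype and a number that is not a title's replicate number, so each was assigned to its group only. Printed starts were read as counted from 0, since 55.8% of 21912 entries matched to RefSeq then had its start, against 3.3% unshifted.

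The FPKM values were used unscaled, with 1 added before taking log2, and genes averaging 1 FPKM or more entered limma 3.58.1 (R 4.3.3, empirical Bayes, mean-variance trend, Benjamini-Hochberg over 10693 genes). Lower receptors had an exact permutation test. Tested on simulated data with these means and spreads over 10693 genes, the fit recovered 0, 50, 82 and 94% of genes changed by 1, 2, 3 and 4 on the log2 scale, with 3 false calls. The changed genes were drawn from those with a mean log2(FPKM + 1) above 2, and both groups were given the same spread. These rates thus do not cover lower genes or a wider spread in the knockout libraries. Depth relative to wild-type library 10 was 0.724, 0.830 and 1.44 in knockout library 10, wild-type library 16 and knockout library 16, and relative to wild-type library 29 it was 0.705, 0.795 and 0.901 in knockout library 29, wild-type library 11 and knockout library 11. The peaks behind these estimates were 30 to 169 times their background in the first barcode run and 3.3 to 4.6 times in the second, so the latter are less certain. Library pairs shared 890 to 2358 genes with low values above 0 in the first run and 5852 to 6960 in the second. Zeros and traces are thus not alike between the barcode runs, and what else set these libraries apart is not given in the labels.

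Receptors, lists, motifs and alternatives were chosen with earlier results of these data known. Named genes were Tox, the 10 receptors, called members of the ligand, signalling and related-receptor lists, tested neighbours, the 3 genes nearest in profile to Icos and to Pdcd1, and lineage genes, with unnamed transcripts counted only. Numbered libraries were checked for pairing (closing section), and the alternatives changed the pseudocount, filter, scaling, trend, weights, threshold, run and libraries. Trat1, Gzma, Gzmb, Eomes, Klrb1b, Cd3d, Cd3g, Cd5 and Flt3 were named after their values were seen. A planned search of protein motifs was not run, and protein sequences were not used here.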

Additional observations from a re-analysis of the deposited data

Results flagged for a closer look

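In a check of each group of 4 libraries for the 10 receptors, 5 values stood apart from the other 3 libraries of their group by more than Dixon's 95% limit on the log2(FPKM + 1) scale, and chance flags about 1 group in 20. Pdcd1 was at 4.88 FPKM in TOX knockout library 16, against at most 0.0467 in the other knockout libraries. Tigit was at 1.28 in TOX knockout library 11 and at 0 in wild-type library 11. Havcr2 was at 1.02 in TOX knockout library 29 and at 0.275 in wild-type library 11. Of these genes Tigit and Havcr2 were under the filter on low values.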

How the results depend on the processing

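Icos and Pdcd1 stayed lower in all 24 alternative settings each and were called in 23, the exception being the first barcode run alone. The number of receptors called lower was 0 there, 2 to 3 when each library was left out in turn, and 2 to 4 in the other settings. Genes called over all tested numbered 205, against 106 with a pseudocount of 0.1, 74 with no filter, 116 with a mean FPKM of at least 5, 328 with globin genes left out, 728 with library weights, 400 at an adjusted p under 0.1, 5 and 95 in the first and second run, and 82 to 654 with a library left out. Signalling partners called numbered 1, against 0 with a pseudocount of 0.1, no filter or a run alone, 3 with quantile normalization, 2 with a pseudocount of 5, 1 FPKM or more in 4 libraries, median-ratio scaling, globin left out, library weights, no trend, an adjusted p under 0.1 or without knockout libraries 16 and 29, and 0 to 2 with a library left out. Ligands numbered 1, against 0 with a pseudocount of 5, a mean of at least 5, the run as covariate, a run alone or without knockout libraries 16 and 29, 2 with globin left out or weights, and 0 to 1 with a library left out. Related receptors numbered 1, against 2 with quantile normalization or without knockout libraries 16 and 29, 3 with weights, 0 in a run alone, and 1 to 2 with a library left out. Neighbours numbered 0, against 1 with a pseudocount of 5, 1 FPKM or more in 4 libraries, quantile normalization, globin left out or an adjusted p under 0.1, and 0 to 1 with a library left out. Ctla4 turned to 0.17 in the second run and 0.47 without knockout libraries 16 and 29, and Cd96 to 0.61 without knockout libraries 16 and 29. The causes were not tested. Same-numbered libraries correlated at 0.04, 0.01, -0.02 and 0.26 in their deviations from the group means (numbers 10, 16, 29 and 11), so the numbers were not taken to pair them, and 1 of 4 knockout libraries matched its own number best. With the column number as a replicate block, 344 genes, 4 receptors (Cd226 among them, adjusted p = 0.0431), 0 ligands, 2 signalling partners and 1 neighbour were called by limma. Absolute depth is unknown, so values under 1 FPKM cannot be given a counting error.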
